A study of Mus musculus with 19 samples.

Results

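The stress-inducible heat shock proteins were described in mouse liver as a family of 10 genes: Hspa1a, Hspa1b, Hspa8, Hsph1, Dnajb1, Dnaja1, Bag3, Hsp90aa1, Hsp90ab1 and Hspb1. They were taken by symbol from the 52110 named entries of the deposited table, and all 10 were among the 10577 genes with enough signal to test. The members were selected on measured values: they had been noted as lower after limb conditioning in mice on the steatohepatitis diet. Those values, and every comparison that takes a group mean from the same samples, are therefore given as a description with no p-value for the members. The 1 comparison whose group means share no sample with that choice, conditioning in mice on chow, was tested. Its spread was estimated from all 4 groups, so its p-values draw on the CDAHFD samples as well. Earlier results of these data were known when the members were chosen. Separate samples alone thus do not show that the chow test was blind to them.

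The 19 samples were wild-type mouse livers in 4 groups. NC sham (5 samples) and NC RIC (5) came from mice on normal chow. CDAHFD sham (5) and CDAHFD RIC (4) came from mice on a diet rich in fat, lacking choline and with its amino acids defined, which is used to bring on fatty, inflamed and scarred liver. RIC is remote limb ischemic conditioning, in which blood flow to a limb is stopped for short periods, and sham mice had the procedure without it. Age, sex, strain, the conditioning schedule and the time from the last conditioning to harvest are not given in the sources used here. No label says that every replicate was its own animal, and the p-values cover only the spread among these 19 samples, which may be technical. In whole liver, fewer cells of a type and less RNA per cell cannot be told apart.

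Heat shock proteins are chaperones that keep other proteins folded. HSP70 proteins bind exposed stretches of unfolded chains, J-proteins such as Dnajb1 and Dnaja1 deliver clients to them and stimulate their ATPase, and Hsph1 and Bag3 help release the nucleotide and the client. HSP90 acts later, on nearly folded clients such as kinases and steroid receptors, and the small protein Hspb1 holds unfolded proteins until HSP70 can take them. When unfolded protein accumulates, heat shock factor 1 is freed from chaperones, forms trimers and binds heat shock elements, inverted repeats of GAA, in the promoters of these genes. Hspa1a and Hspa1b are nearly silent without stress, whereas Hspa8 and Hsp90ab1 are made in most cells at all times. The name of the family is thus looser for Hspa8 and Hsp90ab1 than for the rest.

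Hspa1a and Hspa1b are single-exon genes side by side on the minus strand of mouse chromosome 17, at chr17:34969190-34972156 and chr17:34956436-34959238 (mm10, GENCODE annotation). Their coding sequences, of 1923 and 1926 bases, differed at 8 bases and by a gap of 3 bases and were 99.58% identical. Of all 50-base stretches of the Hspa1b transcript, 62.3% also stood in Hspa1a, and 0% stood in Hspa8. Reads from the shared stretches cannot be assigned to either copy, so the separate values of Hspa1a and Hspa1b are uncertain and their sum is given as well. The copies are alike in the promoter too. The 250 bases before the annotated start are shown for both and for Hspb1, the 3 members whose window held a heat shock element of 2 units and no annotated exon, since this is the stretch in which heat shock factors bind such genes (RefSeq, GRCm38.p6, 5′ to 3′, with each element GAANNTTC or TTCNNGAA in capitals).
Hspa1a: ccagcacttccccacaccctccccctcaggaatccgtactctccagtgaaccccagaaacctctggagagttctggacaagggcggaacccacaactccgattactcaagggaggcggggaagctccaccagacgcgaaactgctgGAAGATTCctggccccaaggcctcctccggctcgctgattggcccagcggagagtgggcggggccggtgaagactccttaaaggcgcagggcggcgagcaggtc
Hspa1b: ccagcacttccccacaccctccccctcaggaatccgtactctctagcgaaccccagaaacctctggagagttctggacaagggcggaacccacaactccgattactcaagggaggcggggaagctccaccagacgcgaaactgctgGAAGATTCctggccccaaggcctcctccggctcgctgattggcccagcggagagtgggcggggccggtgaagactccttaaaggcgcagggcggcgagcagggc
Hspb1: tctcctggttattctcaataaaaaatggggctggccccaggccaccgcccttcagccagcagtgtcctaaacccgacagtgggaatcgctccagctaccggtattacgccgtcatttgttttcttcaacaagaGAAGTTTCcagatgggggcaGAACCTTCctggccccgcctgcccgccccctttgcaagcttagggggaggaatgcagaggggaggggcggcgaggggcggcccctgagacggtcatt

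The Hspa1a window (chr17:34972157-34972406, minus strand) and the Hspa1b window (chr17:34959239-34959488, minus strand) differed at 3 of 250 bases. Written with the Hspa1a base first, the position from the 5′ end of the window, and the Hspa1b base last, these were C44T, T47C and T249G, and none lay in the element. In both copies 96 bases separated the element from the start. The Hspb1 window (chr5:135887669-135887918, plus strand) held 2 elements, the nearer of them 89 bases before the start. Promoters were found for 7 of the 10 members. Both spellings of the element are palindromes, so a match reads the same on either strand, and 5 of the 7 held at least 1 (Hspa1a, Hspa1b, Hsph1, Dnaja1 and Hspb1), against 12.8% of all 32851 promoters of the same length. The Dnaja1 window lay inside the annotated gene, over exons of Dnaja1 and Gm6297, and 40 bases of the Hsph1 window lay inside its gene. The windows of Dnajb1 and Bag3 held none of these letters. The longer form, in which a 2-unit element is followed after 2 bases by the next GAA or TTC unit, was in 0 of the 7 and in 0.466% of all promoters. TATAAA, read on both strands, was in 0 of the 7 and in 12.4%. Hspa8, Hsp90aa1 and Hsp90ab1 had no promoter in the table used.

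Levels were deposited as FPKM, which divides the fragments of a gene by its length and by the mapped total, so genes can be compared per length. In NC sham, Hspa8 stood first at 414 ± 57.1 FPKM (SD, n = 5), followed by Hsp90ab1 at 178 ± 20.6. Hsp90aa1 at 87.2 ± 29 and Dnaja1 at 60.8 ± 7.55 came next and overlapped between samples. Hsph1 (17.2 ± 4.17), Hspb1 (14.5 ± 4.65), Hspa1b (14.5 ± 5.08) and Dnajb1 (9.84 ± 1.66) overlapped one another as well, and Bag3 (5.97 ± 1.19) and Hspa1a (2.45 ± 0.732) were lowest. Hspa8, Hsp90aa1 and Hsp90ab1, the 3 with the highest means, together made up 84.5% ± 0.94 of the summed FPKM of the family in NC sham and 83.2% ± 1.98 after conditioning on chow. They held 79.8% ± 1.14 of it in the CDAHFD sham samples and 87% ± 0.482 in the conditioned ones (n = 4). In CDAHFD sham Hspa1b (37 ± 13.1 FPKM) stood after Dnaja1 (62.4 ± 8.37) and ahead of Hspb1 (28 ± 8.08), with which it overlapped. In CDAHFD RIC Hspa1b (1.79 ± 0.548) came last but one, after Hsph1 (2.7 ± 0.698), with which it overlapped, and above Hspa1a. Hspa8, Hsp90ab1, Hsp90aa1 and Dnaja1 were the 4 highest in every group by their means. The sum of the family was 805 ± 117 FPKM in NC sham and 925 ± 90.5 in CDAHFD sham. After conditioning it was 565 ± 72.7 on chow and 478 ± 34.3 on CDAHFD, so both conditioned groups lay below both sham groups on average.

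**Figure D1:**
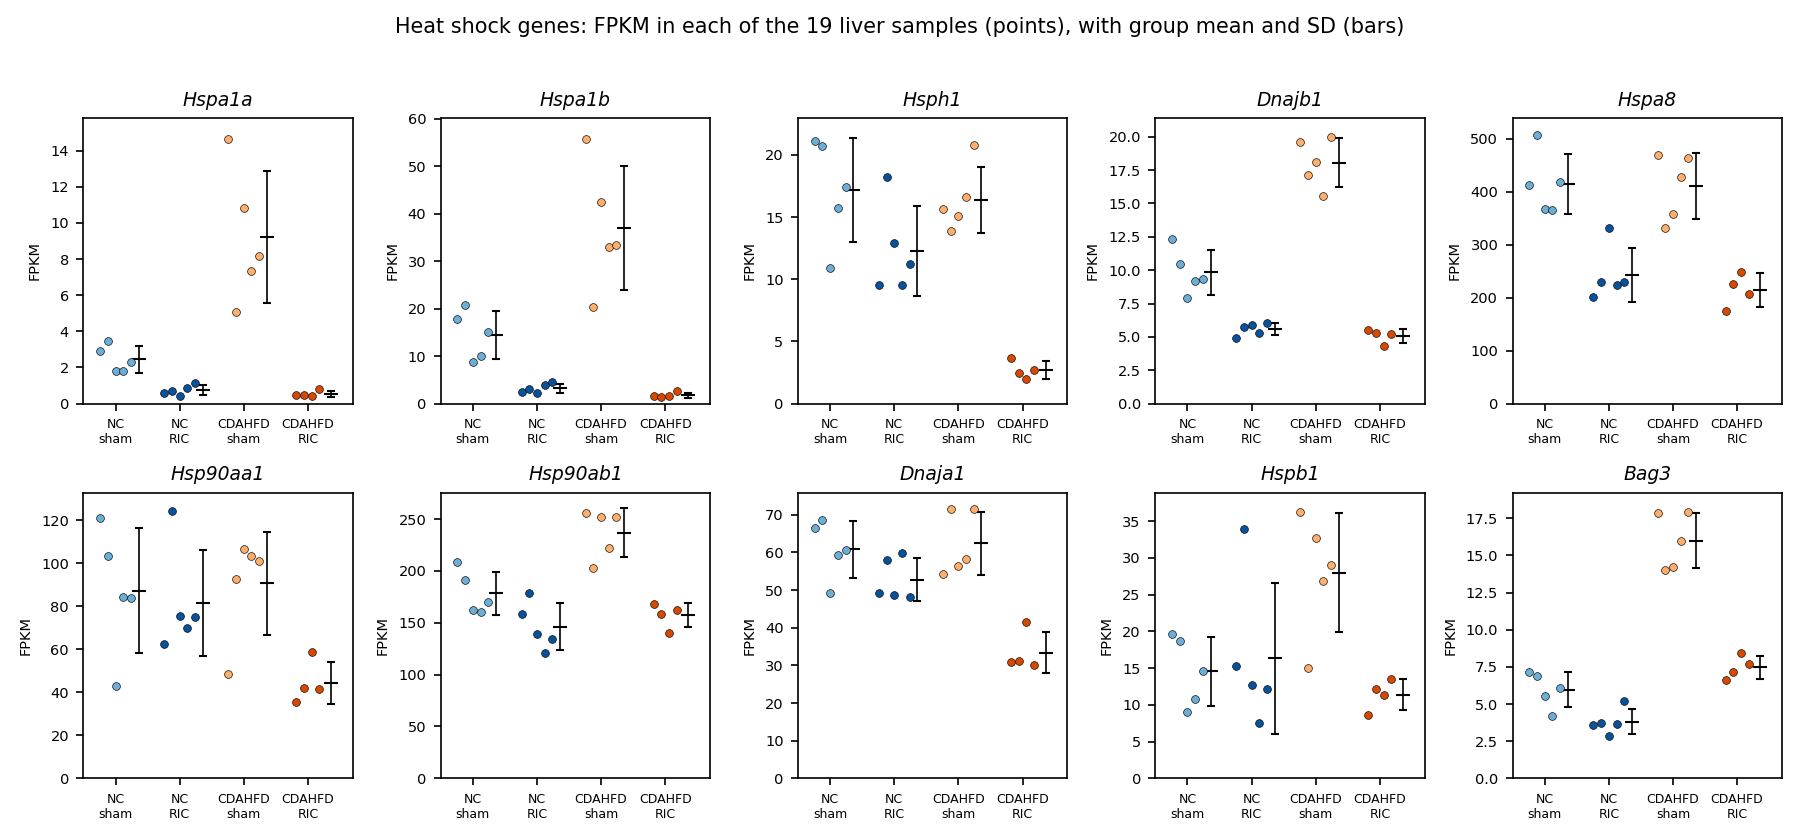
Each panel plots 1 heat shock gene, with FPKM on the vertical axis and the 4 groups on the horizontal axis; points are samples (5, 5, 5 and 4) and bars show the group mean and SD. Hspa1a, Hspa1b and Dnajb1 are low in both conditioned groups, at mean FPKM of 0.742, 3.25 and 5.57 in NC RIC and 0.551, 1.79 and 5.09 in CDAHFD RIC, whereas Hsph1 is low only in CDAHFD RIC (2.7 against 12.3 to 17.2 elsewhere).

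Depth, estimated from what 1 read is worth in genes with a single annotated transcript of 1 exon, was 16 to 26.4 M reads per sample (mean 19.7 M). Only 14.9% to 16.9% of low values came within 2% of a read of a whole multiple, so read counts were not recovered and these depths are estimates. On that basis the lowest value of Hspa1a rested on 24.3 reads and its highest on 692, and Hspa1b on 84.8 to 2490. Markers of other tissue were low in these livers: the summed FPKM of 5 skeletal muscle genes was at most 0.529 in any sample. Macrophage markers (11 genes) summed to 68.1 to 127 FPKM on chow and to 719 to 1491 on CDAHFD, in sham and conditioned samples alike. The FPKM of all genes summed to 482227 to 512036 on chow, to 441294 to 495052 in CDAHFD sham and to 418945 to 443297 in CDAHFD RIC.

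The first comparison asked whether conditioning of a limb went with a different level of these chaperones in the liver of mice on chow. It did for 5 of the 10: Hspa1b, Hspa1a, Dnajb1, Hspa8 and Bag3 fell, and none rose, by limma's moderated test with Benjamini-Hochberg adjustment over all 10577 genes and a threshold of 0.05. Of all genes, 0.86% were called lower in this comparison and 0.321% higher. At an unadjusted p under 0.05 the counts were 7 lower and 0 higher, with 12.9% and 3.61% of all genes. Hspa1b and Dnajb1 had the first and second smallest p of all genes tested.

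Hspa1b, the more abundant inducible HSP70 copy, stood at 17.9, 20.7, 8.82, 9.96 and 15.1 FPKM in the NC sham samples and at 2.47, 3.15, 2.26, 3.88 and 4.48 in NC RIC. The highest conditioned sample was below the lowest sham sample, and the means differed 4.46-fold. The difference in log2(FPKM + 1), the scale of all differences here, was -1.83 (SE 0.243, limma adjusted p = 0.00462). Its copy Hspa1a read 2.9, 3.47, 1.78, 1.8 and 2.3 FPKM in NC sham and 0.587, 0.723, 0.401, 0.861 and 1.14 in NC RIC. These groups did not overlap either, at a 3.3-fold lower mean and a log2 difference of -0.98 (SE 0.196, limma adjusted p = 0.0255), which understates the change because Hspa1a lies near the pseudocount of 1 (-1.62 with a pseudocount of 0.1). The sum of both copies was 10.6 to 24.2 FPKM in NC sham and 2.66 to 5.62 in NC RIC.

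Dnajb1, the stress-inducible J-protein that activates HSP70, had the smallest standard error of the family. It read 12.3, 10.5, 7.91, 9.16 and 9.32 FPKM in NC sham and 4.94, 5.75, 5.88, 5.28 and 6.01 in NC RIC. All 5 conditioned samples lay below all 5 sham samples, with a log2 difference of -0.71 (SE 0.0997, limma adjusted p = 0.00495). Hspa8, the constitutive HSP70 that also recycles clathrin coats and targets proteins to lysosomes, read 413, 507, 367, 366 and 418 FPKM in NC sham and 201, 230, 331, 224 and 229 in NC RIC. One conditioned sample, at 331, came close to the sham range without entering it. The log2 difference was -0.78 (SE 0.139, limma adjusted p = 0.0141). In absolute terms this was the widest gap of the family, since the mean of Hspa8 went from 414 to 243 FPKM. Bag3, a nucleotide exchange factor that links HSP70 to autophagy, read 7.17, 6.86, 5.55, 4.17 and 6.09 FPKM in NC sham and 3.6, 3.75, 2.87, 3.67 and 5.18 in NC RIC. Its groups overlapped, and it passed narrowly, with a log2 difference of -0.53 (SE 0.128, limma adjusted p = 0.0496).

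The limma calls of Hspa1b and Dnajb1 held in each of 20 alternatives, with adjusted p from 0.000365 to 0.0236 and from 0.000721 to 0.0363. Hspa1a lost its limma call with no filter on low values (adjusted p = 0.0727) and without NC sham sample 1 (0.0792), 2 (0.0774) or 5 (0.0519) or NC RIC sample 2 (0.059) or 3 (0.069), over a range of 0.00408 to 0.0792. Hspa8 lost it under quantile normalization (0.0723) and without NC sham sample 2 (0.0609) or NC RIC sample 2 (0.0545), over a range of 0.00472 to 0.0723. Bag3 lost it in 14 of 20 alternatives, among them the omission of NC sham sample 1 (0.142), 2 (0.131), 3 (0.0719) or 5 (0.107) or of NC RIC sample 1 (0.0877), 2 (0.116), 3 (0.116) or 4 (0.0892), over a range of 0.0148 to 0.142. With only the chow groups in the fit, Bag3 had a limma adjusted p of 0.0996, and Hspa1b, Hspa1a, Dnajb1 and Hspa8 kept their calls.

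The other 5 members did not pass on chow. Hsph1, the HSP110 exchange factor, had 10.9 to 21.1 FPKM in NC sham and 9.54 to 18.2 in NC RIC (log2 difference -0.45, SE 0.181, limma adjusted p = 0.215). Hsp90ab1, the constitutive cytosolic HSP90, had 161 to 208 and 121 to 178 FPKM (log2 difference -0.29, SE 0.106, limma adjusted p = 0.175). Dnaja1, a farnesylated J-protein, had 49.2 to 68.5 and 48.2 to 59.7 FPKM (log2 difference -0.20, SE 0.114, limma adjusted p = 0.404). For Hsp90aa1, the inducible HSP90, the log2 difference was -0.06 (SE 0.256, limma adjusted p = 0.937), with 43.1 to 121 FPKM in NC sham and 62.2 to 124 in NC RIC. For Hspb1 it was 0.04 (SE 0.301, limma adjusted p = 0.966), and 1 conditioned sample at 33.9 FPKM stood above the other 4, at 7.49 to 15.2. The samples thus spread widely for Hsp90aa1 and Hspb1, and the standard errors leave room for sizeable differences in either direction. Of the 10 members 4 had groups that did not overlap, all lower after conditioning, against 3.75% of all genes. The median difference of the 10 was -0.49, and that of all genes tested was -0.06. The summed FPKM of 10 hepatocyte markers was 44393 to 55499 in NC sham and 59502 to 69971 in NC RIC. Alb, which encodes albumin and was the 1 marker called, went from a mean of 34829 to 48982 FPKM. Of the 10 markers 8 had differences below 0, with a median of -0.10. Their part in the result was not tested.

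**Figure D2:**
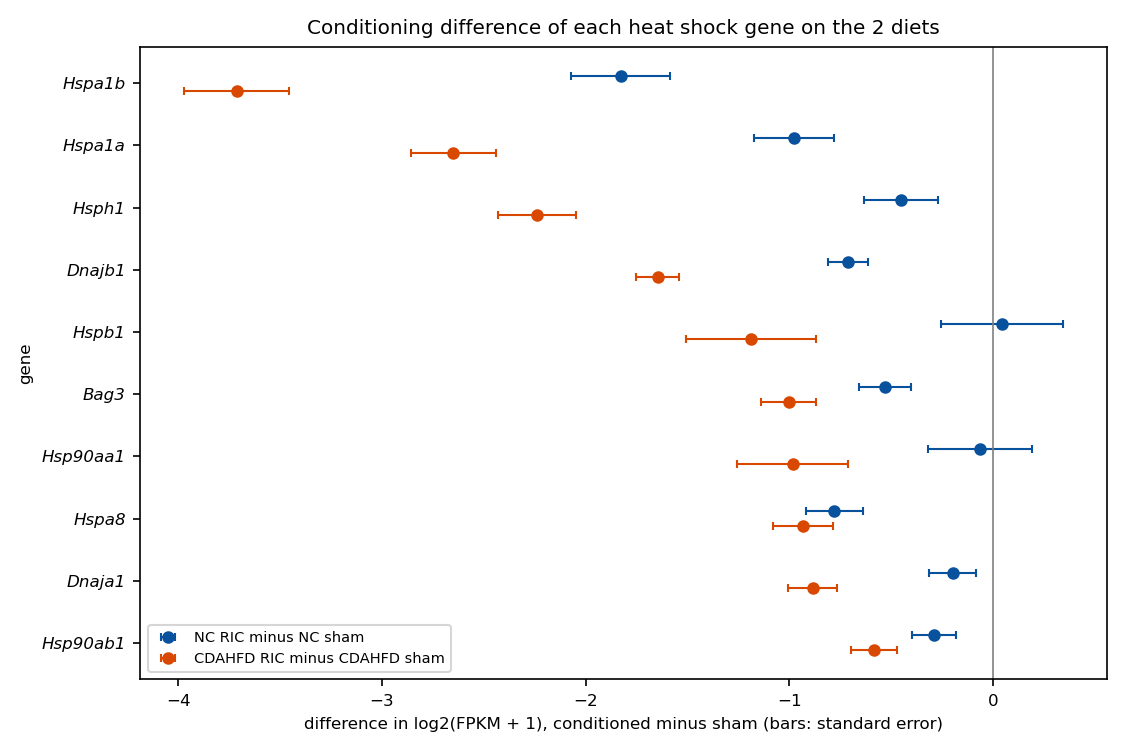
The horizontal axis gives the difference in log2(FPKM + 1) between conditioned and sham samples for each heat shock gene, blue on chow and orange on CDAHFD; points are fitted differences and bars their standard errors. All 10 orange points lie below 0, from -0.59 (Hsp90ab1) to -3.71 (Hspa1b), and the blue points run from 0.04 (Hspb1) to -1.83 (Hspa1b).

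On CDAHFD the members were noted because they were lower after conditioning, so the values that follow describe that choice. All 10 passed the threshold as lower, against 18.6% of all genes called lower, and 9 of 10 had groups that did not overlap, against 13.1% of all genes. Nothing is read from these counts. The differences were the same in direction and call in all 199 values recomputed under the alternatives. These reuse the samples by which the members were chosen, so nothing is read from that either.

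The inducible HSP70 copies differed most. Hspa1b read 55.7, 20.5, 42.4, 32.9 and 33.3 FPKM in CDAHFD sham and 1.54, 1.44, 1.58 and 2.61 in CDAHFD RIC. The lowest sham sample was far above the highest conditioned one, with means that differed 20.6-fold (log2 difference -3.71, SE 0.258). Hspa1a read 14.6, 5.08, 10.8, 7.32 and 8.18 FPKM against 0.499, 0.483, 0.437 and 0.785 (16.7-fold, log2 difference -2.65, SE 0.208). The 2 sham samples highest for Hspa1b were also the 2 highest for Hspa1a. As a share of constitutive Hspa8, the 2 copies together reached 11.2% ± 3.48 in CDAHFD sham and 1.12% ± 0.381 in CDAHFD RIC. On chow the same share was 4.01% ± 0.942 in sham and 1.72% ± 0.63 in conditioned samples. The ratio of Hspa1b to Hspa1a was 5.84 ± 0.616, 4.53 ± 0.654, 4.06 ± 0.265 and 3.25 ± 0.288 in the order NC sham, NC RIC, CDAHFD sham, CDAHFD RIC, so it was not the same in every group.

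The HSP70 helpers Hsph1, Dnajb1 and Bag3 come next. Hsph1 read 15.6, 13.9, 15.1, 16.6 and 20.8 FPKM in CDAHFD sham and 3.66, 2.49, 1.99 and 2.68 in CDAHFD RIC (6.06-fold, log2 difference -2.24, SE 0.192). Of the 10 genes, Hsph1 was the one whose conditioned samples on CDAHFD were, in proportion, farthest below every other group, since NC RIC held 9.54 to 18.2 FPKM. Dnajb1 read 19.6, 17.1, 18.1, 15.6 and 20 FPKM against 5.54, 5.27, 4.33 and 5.2 (3.55-fold, log2 difference -1.65, SE 0.106). The conditioned level of Dnajb1 was close on the 2 diets, at 5.57 ± 0.448 in NC RIC and 5.09 ± 0.523 in CDAHFD RIC, while the sham level was 9.84 ± 1.66 and 18.1 ± 1.82. Bag3 read 17.8, 14, 14.2, 16 and 17.9 FPKM against 6.62, 7.12, 8.43 and 7.69 (2.14-fold, log2 difference -1.003, SE 0.136).

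The remaining members were Hspa8, Dnaja1, the HSP90 genes and Hspb1. Hspa8 read 469, 332, 358, 428 and 464 FPKM in CDAHFD sham and 174, 225, 249 and 208 in CDAHFD RIC (1.92-fold, log2 difference -0.93, SE 0.147). Dnaja1 read 54.4, 71.4, 56.4, 58.3 and 71.4 against 31, 31, 41.5 and 30.1 (1.87-fold, log2 difference -0.89, SE 0.121). Both sets were separate between groups. Hsp90ab1 read 256, 203, 252, 222 and 252 FPKM against 168, 159, 140 and 162 (1.51-fold, log2 difference -0.59, SE 0.113). Hsp90aa1 read 48.7, 92.8, 107, 103 and 101 FPKM against 35.5, 42.1, 58.6 and 41.3 (2.04-fold, log2 difference -0.98, SE 0.272), and its groups overlapped through the single sham sample at 48.7. Hspb1 read 36.2, 15, 32.7, 26.8 and 29 FPKM against 8.55, 12.2, 11.3 and 13.5 (2.46-fold, log2 difference -1.19, SE 0.319). For Hspb1 the sham sample at 15 came close to the highest conditioned sample at 13.5. Hsp90aa1 and Hspb1 had the widest standard errors of the family on both diets.

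The diet comparison in sham mice asked how CDAHFD without conditioning went with these genes. It shares CDAHFD sham with the comparison that picked the members and is a description for them. Of the 10, 6 were called higher (Hspa1a, Bag3, Hspa1b, Hspb1, Dnajb1 and Hsp90ab1) and 0 lower, against 63.9% of all genes called higher and 10.3% lower. At an unadjusted p under 0.05 limma gave the same counts, 6 and 0, with 65% and 10.8% of all genes. All genes together had a median of 0.45, and -0.01 under median-ratio scaling and -0.04 under quantile normalization, so the differences are best read against that shift. Above it lay Hspa1a (log2 difference 1.52, SE 0.196), Bag3 (1.30, SE 0.128), Hspa1b (1.29, SE 0.243), Hspb1 (0.90, SE 0.301) and Dnajb1 (0.82, SE 0.0997). Hsp90ab1 (0.41, SE 0.106) lay at the shift, and its sign turned under median-ratio scaling (-0.17). Hspa8 (-0.02, SE 0.139), Hsph1 (-0.04, SE 0.181), Dnaja1 (0.04, SE 0.114) and Hsp90aa1 (0.08, SE 0.256) lay below the shift and changed sign between alternatives. Under median-ratio scaling 4 members were higher and 3 lower (Hsph1 at -0.59, Hspa8 at -0.60 and Dnaja1 at -0.54), with 29.5% and 31.1% of all genes. Under quantile normalization 5 were higher and 1 lower, with 29.5% and 32.4% of all genes. Hspb1 lost its call under both (0.34 and 0.47). Hspa8 had 0.30 under quantile normalization, above the median of all genes there, and was not called. Its place against the shift thus depended on the scaling. The 3 members whose sham groups did not overlap between diets, against 52.4% of all genes higher without overlap, were Hspa1a, Dnajb1 and Bag3. Macrophage and stellate cell markers differed in the same comparison, with 11 of 11 and 8 of 8 called higher (stellate markers summed to 18.8 to 33.1 FPKM in NC sham and 114 to 226 in CDAHFD sham). Among other marker lists, 7 of 8 sinusoidal endothelial genes were called higher and 4 of 5 erythroid genes lower. Of 10 hepatocyte markers 1 was called higher and 6 lower. The part of these cells in the result was not tested.

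Between the conditioned groups the members were placed differently. In CDAHFD RIC minus NC RIC, which shares CDAHFD RIC with the choice of members, 1 of 10 was called higher and 4 lower, against 63.6% and 6.68% of all genes. Bag3 was the higher one (log2 difference 0.83, SE 0.136), and the 1 member whose CDAHFD samples (6.62 to 8.43 FPKM) all lay above those on chow (2.87 to 5.18), as 53.3% of all genes did. Hsph1 (-1.82, SE 0.192), Hsp90aa1 (-0.84, SE 0.272), Dnaja1 (-0.65, SE 0.121) and Hspa1b (-0.60, SE 0.258) were the lower ones. The median of all genes was 0.42 here. Under median-ratio scaling, which removes that shift, 8 members were lower and 1 higher, with 25% and 24.4% of all genes. Under quantile normalization 7 were lower and 1 higher, with 27% and 24.1% of all genes. Hspa1b lost its call in 10 of 19 alternatives, 6 of them the omission of NC RIC sample 2, 4 or 5 or CDAHFD RIC sample 1, 2 or 3 (log2 difference -0.50 to -0.60).

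Against NC sham, the chow group without conditioning, CDAHFD RIC had 7 members lower and 0 higher, with 8.06% and 57% of all genes called. At an unadjusted p under 0.05 limma gave 7 and 1, with 8.64% and 59.3% of all genes. Hspa1b (8.09-fold lower, log2 difference -2.43), Hsph1 (6.34-fold, -2.28) and Hspa1a (4.45-fold, -1.13) were lowest, followed by Hspa8, Hsp90aa1, Dnaja1 and Dnajb1 at -0.82 to -0.95. Hsp90ab1 (-0.18), Hspb1 (-0.29) and Bag3 (0.29) did not pass, and Bag3 was called higher without NC sham sample 1 (0.36) or 2 (0.34). For these 7 the conditioned samples on CDAHFD were thus lower on average than the chow level as well as the diet level.

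The difference of the 2 conditioning effects, CDAHFD minus chow, holds the contrast that picked the members and is likewise a description. It was called lower for 5 of 10, against 3.13% of all genes. These were Hspa1b (-1.88, SE 0.354), Hsph1 (-1.78, SE 0.264), Hspa1a (-1.68, SE 0.286), Dnajb1 (-0.94, SE 0.145) and Dnaja1 (-0.69, SE 0.166). For Hspa8 the conditioning differences on the 2 diets were near each other, at -0.93 and -0.78, and their difference was -0.15 (SE 0.202), which does not show that they were equal. Dnaja1 lost its call when samples were rescaled to a common sum (-0.55), and Hspb1 (-1.23, SE 0.438) gained one without CDAHFD sham sample 2 (-1.43) or NC RIC sample 4 (-1.44).

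**Figure D3:**
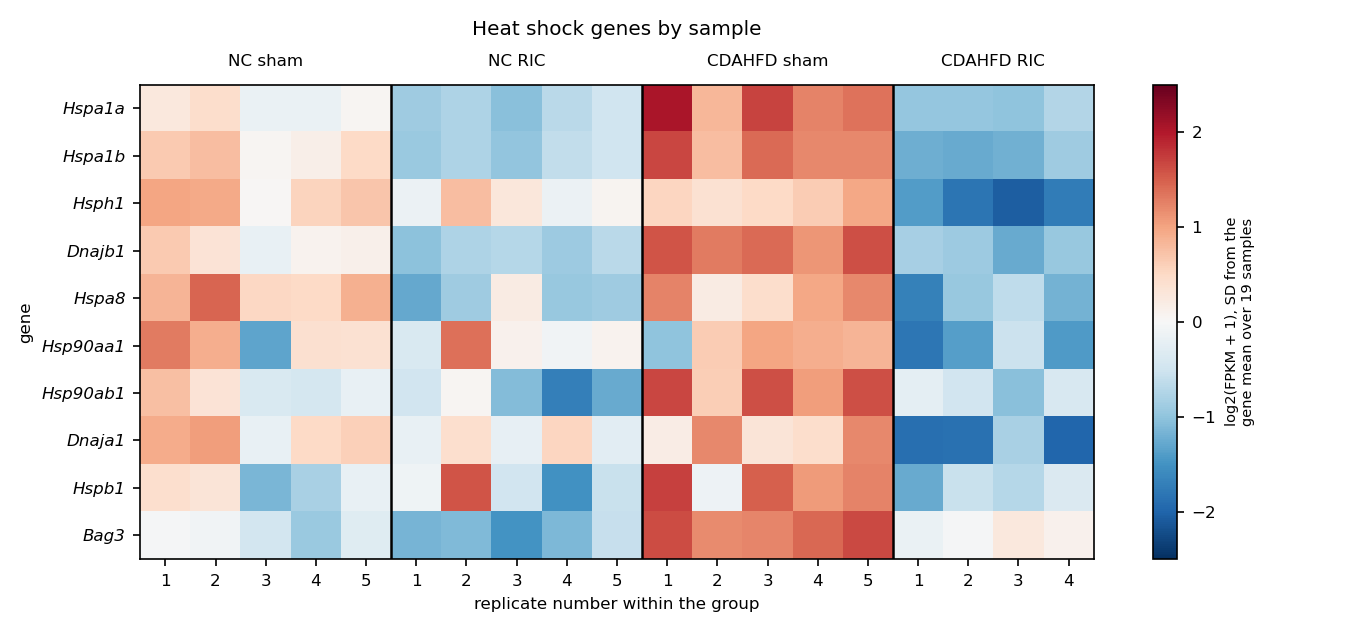
Rows are the 10 heat shock genes and columns the 19 samples in 4 groups; colour gives log2(FPKM + 1) in SD from the mean of each gene over all samples, red above and blue below. CDAHFD sham is red in most rows and CDAHFD RIC blue in most, with Bag3 near its mean in CDAHFD RIC and CDAHFD sham sample 1 blue for Hsp90aa1 (48.7 FPKM).

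The members varied together to different degrees. Over the 19 samples the correlation of log2 values between 2 members had a median of r = 0.672 over 45 pairs (0.106 to 0.971), a description, since the samples share the group differences that picked the genes. After the group means were taken out, the median was 0.318 (-0.147 to 0.952), with 42 of 45 pairs above 0. The same was not computed for pairs of other genes, and the pairs share genes and samples, so nothing is read from that count. The closest pair by either measure was Hspa1a and Hspa1b, whose reads are partly shared. Within groups Hsp90ab1 and Hspb1 had r = 0.855, and Hsph1 and Dnajb1 r = 0.711. Each member was then set to mean 0 and SD 1 over the samples and averaged. This mean was 0.698 to 1.29 in CDAHFD sham, -0.325 to 0.678 in NC sham, -0.724 to -0.00968 in NC RIC and -1.14 to -0.901 in CDAHFD RIC, so the ranges of the 2 chow groups overlapped and those of the CDAHFD groups stood outside them on either side.

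Outside the family, the 8 genes whose levels followed this mean most closely over 19 samples, of 9394 compared, were Ncbp2 (r = 0.9497, rho = 0.912), Stip1 (0.944, 0.933), Gpr137 (0.938, 0.902), Ahsa1 (0.931, 0.947), Slc5a3 (0.928, 0.928), Cacybp (0.927, 0.905), Fkbp4 (0.905, 0.923) and Hist2h3c2 (0.893, 0.821). Of these Stip1 hands clients from HSP70 to HSP90, Ahsa1 activates the HSP90 ATPase, Fkbp4 is an HSP90-bound immunophilin, Ncbp2 is a subunit of the nuclear cap-binding complex and Slc5a3 imports myo-inositol. Cyld, a deubiquitinase (r = -0.865, rho = -0.923), Ankrd28 (-0.859, -0.856), Helb, a DNA helicase (-0.852, -0.849), and Zyg11b (-0.851, -0.875) ran most opposite. After group means were taken out, Ahsa1 (r = 0.855), Hspe1, the mitochondrial HSP10 (0.853), Ncbp2 (0.792), Rhbdd1 (0.790), Stip1 (0.784) and Rptor (0.784) were closest, so Ahsa1, Ncbp2 and Stip1 were on both lists. The points share the 19 libraries. The mean also carries the group differences that picked the members. Genes that differed strongly between the CDAHFD groups thus tend to follow it, so r over 19 samples is a description.

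The rest of the chaperone network was read from lists of relatives, small heat shock proteins, J-proteins, cochaperones, the chaperonin TRiC, and the chaperones of the endoplasmic reticulum and of mitochondria, together 71 tested genes. On chow, limma called 0 of the 71 in either direction, with 10 lower and 1 higher at an unadjusted p under 0.05, where 12.9% of all genes were lower and 3.61% higher. The share of the 71 was thus near that of all genes. Among them Dnaja2, a constitutive J-protein, had a log2 difference of -0.23 (limma adjusted p = 0.082, and 0.0241 with sample weights, over a range of 0.0241 to 0.452), and Chordc1, an HSP90 cochaperone, had -0.37 (limma adjusted p = 0.162). Stip1 read 20.5 to 33.2 FPKM in NC sham and 19.7 to 31 in NC RIC (log2 difference -0.25, limma adjusted p = 0.39). The median over the 71 was -0.10 on chow, beside -0.49 for the 10 heat shock genes and -0.06 for all genes. By class it ran from 0.14 for the HSP70 and HSP110 relatives to -0.38 for the 15 endoplasmic reticulum chaperones. The latter thus came near the median of the heat shock genes, though limma called 0 of them.

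On CDAHFD more of these genes were called. The lists were made with earlier results of these data known. Genes are named for small p-values or for likeness to the family's mean, so their p-values are a description. The same holds for the lists that follow. Of the 71, 26 fell after conditioning and 3 rose, with 18.6% and 8.72% of all genes called, and the median was -0.23, beside -1.09 for the heat shock genes and -0.08 for all genes. When samples were rescaled to a common sum, 15 fell, and 9.19% of all genes did. Of the cochaperones 10 of 20 tested fell and 1 rose, and the number that fell stayed between 9 and 11 in 20 alternatives. Their median was -0.30. Fkbp4 fell from 60.7 ± 10.9 to 23.2 ± 3.32 FPKM (log2 difference -1.34, SE 0.156, limma adjusted p = 2.62e-05). Ahsa2, a relative of Ahsa1, fell from 11.1 ± 1.09 to 4.48 ± 0.441 (-1.14, SE 0.11, limma adjusted p = 4.29e-06). Stip1 fell from 41.9 ± 7.07 to 19.4 ± 2.03 (-1.06, SE 0.149, limma adjusted p = 0.000107), and Cacybp from 34.4 ± 3.29 to 15.7 ± 1.19 (-1.08, SE 0.126, limma adjusted p = 2.62e-05). Ptges3, the p23 cochaperone (-0.78), and Ahsa1 (-0.67) fell too. Bag4, an exchange factor that silences death receptors, rose from 2.9 ± 0.532 to 6.83 ± 1.44 FPKM (log2 difference 0.998, SE 0.111, limma adjusted p = 1.92e-05), against the direction of its relative Bag3.

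The conditioning effect of several cochaperones differed between diets by the interaction term: 6 of 20 were lower and 1 higher on CDAHFD, with 3.13% and 3.59% of all genes called, and 3 lower after rescaling to a common sum, with 1.46% of all genes. Fkbp4 (-1.24, SE 0.215, limma adjusted p = 0.00251), Cacybp (-0.99, SE 0.173, limma adjusted p = 0.00286), Ahsa2 (-0.91, SE 0.152, limma adjusted p = 0.00186) and Bag4 (1.18, SE 0.153, limma adjusted p = 0.00039) kept their calls in 29 of 29 alternatives. These genes were named for the smallest p of the list, and the alternatives reuse the same samples, so this too is a description.

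The other chaperone classes are read against the same 18.6% of all genes lower and 8.72% higher, which were 9.19% and 11.4% under the common sum and 10% and 12.8% under median-ratio scaling. Of 3 HSP70 and HSP110 relatives tested, Hspa4 fell on CDAHFD (log2 difference -0.39, limma adjusted p = 0.0052), and it lost the call after rescaling to a common sum (0.0689, over a range of 0.00343 to 0.0689). Of 4 small heat shock proteins, the crystallin Cryab fell, from 3.18 ± 1 to 1.43 ± 0.463 FPKM (-0.77, limma adjusted p = 0.00318). Of 11 J-proteins 3 fell, and 0 fell and 1 rose under either the common sum or median-ratio scaling. Of 8 TRiC subunits 4 fell, Cct2 first (-0.38, limma adjusted p = 0.0112), but 0 fell under the common sum and 2 under median-ratio scaling. In the endoplasmic reticulum 5 of 15 fell and 1 rose, and 3 fell under either the common sum or median-ratio scaling. The median there was -0.30, as for the cochaperones. Calr, the lectin chaperone calreticulin, fell (-0.82, limma adjusted p = 0.0114; 0.0506 without CDAHFD RIC sample 3, over a range of 0.00393 to 0.0506), and Dnajb9, a J-protein of the unfolded protein response, rose (0.58, limma adjusted p = 0.0143; 0.0594 without CDAHFD RIC sample 1, over a range of 0.00738 to 0.0594). In mitochondria, where the median was 0.10 and thus above that of all genes, 2 of 10 fell, a share near that of all genes: Clpp (-0.57, limma adjusted p = 0.00139) and Hspe1 (-0.33, limma adjusted p = 0.0366), and Grpel2, an exchange factor of mitochondrial HSP70, rose (0.54, limma adjusted p = 0.00979). Under either the common sum or median-ratio scaling 1 fell. Hspe1 lost its call in 12 of 20 alternatives, among them the omission of CDAHFD sham sample 1, 3, 4 or 5 or CDAHFD RIC sample 1 or 2 (limma adjusted p 0.0615 to 0.111, over a range of 0.0267 to 0.186).

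**Figure D4:**
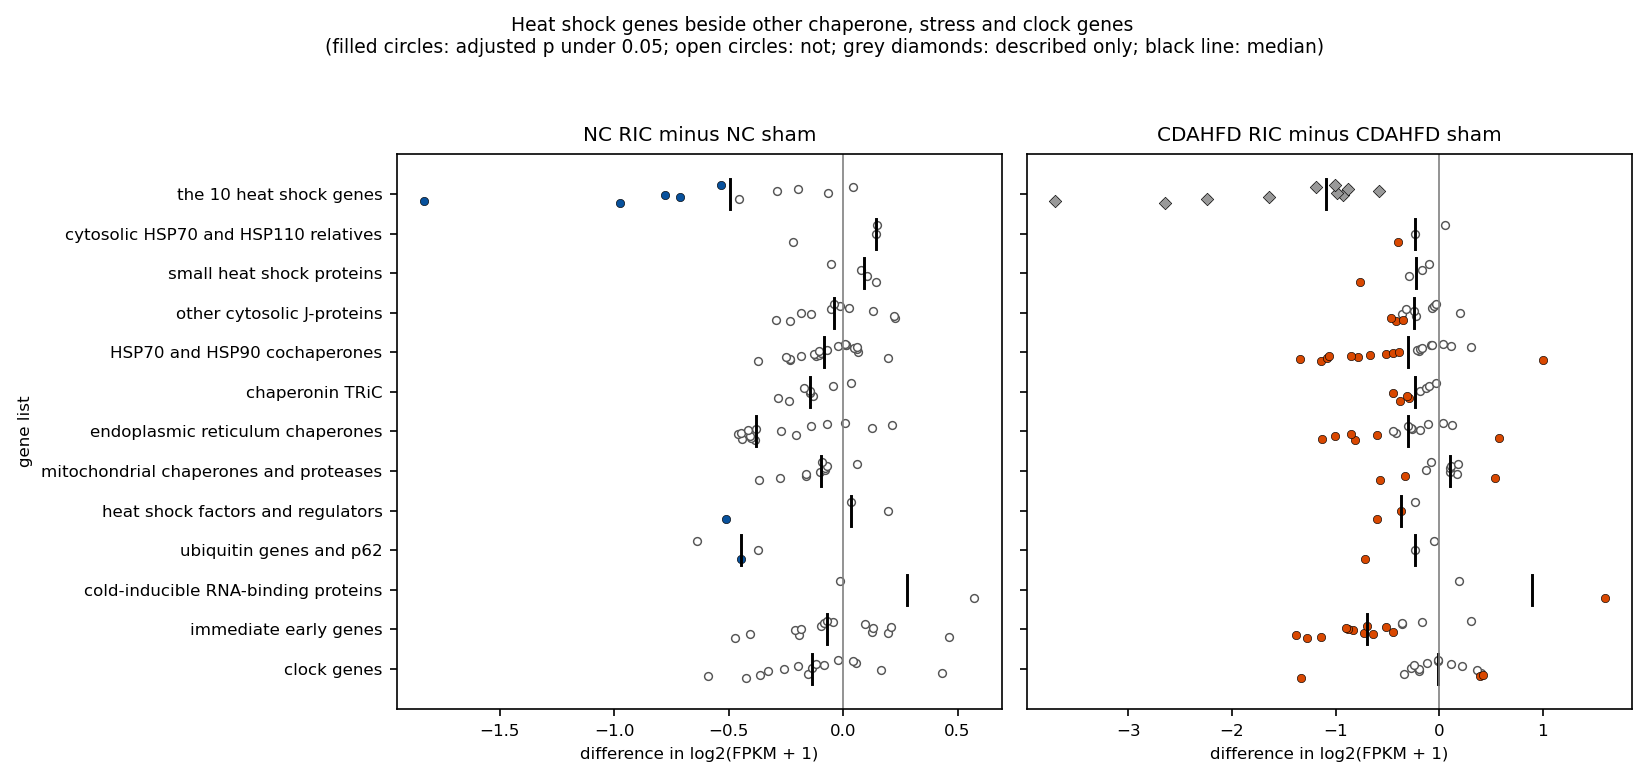
Each row is a gene list and each point 1 gene, placed by its difference in log2(FPKM + 1) between conditioned and sham samples on chow (left) and CDAHFD (right); filled circles passed an adjusted p of 0.05, open circles did not, grey diamonds are the heat shock genes that are only described there, and black lines are medians. The heat shock genes have medians of -0.49 and -1.09, and on chow no gene of the 7 other chaperone lists is filled.

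Among the regulators, Hsf2, a heat shock factor that can form mixed trimers with Hsf1, fell on both diets. It read 3.2 to 4.82 FPKM in NC sham and 1.97 to 2.85 in NC RIC (log2 difference -0.51, SE 0.104, limma adjusted p = 0.0281). On CDAHFD it read 5.04 to 7.04 and 3.22 to 4.13 (-0.60, SE 0.111, limma adjusted p = 0.00103). The groups did not overlap on either diet. Of all genes tested, 3.75% were lower without overlap on chow and 13.1% on CDAHFD. The call on chow was lost with no filter (0.061), with only the chow groups in the fit (0.0644) and without NC sham sample 1 (0.0893), 2 (0.0777) or 5 (0.0519) or NC RIC sample 2 (0.0924) or 4 (0.0569), over a range of 0.00895 to 0.0924. Hsf1, the main heat shock factor, was below the level set for testing, at 0.794 ± 0.139 FPKM in sham and 0.552 ± 0.0315 in conditioned mice on chow, and 1.24 ± 0.175 and 0.8 ± 0.0879 on CDAHFD. Each conditioned group lay below its sham group without overlap, beside the same shares of the tested genes, to which Hsf1 does not belong. Hsbp1, which binds heat shock factor trimers, fell on CDAHFD (-0.37, limma adjusted p = 0.00435) and had a difference of 0.03 on chow (limma adjusted p = 0.876). Hsf4 had differences of 0.20 and -0.23 that did not pass (limma adjusted p = 0.502 and 0.23).

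Ubiquitin genes, p62 and cold-inducible genes were also listed. Of 3 ubiquitin and p62 genes, 3 were lower and 0 higher on chow at an unadjusted p under 0.05 by limma, where all genes had 12.9% and 3.61%. The polyubiquitin gene Ubb fell on chow (log2 difference -0.45, limma adjusted p = 0.0496), a call lost in 15 of 20 alternatives, including the omission of any 1 of the 10 chow samples (over a range of 0.0102 to 0.153). Sqstm1, the autophagy receptor p62, had -0.37 on chow (limma adjusted p = 0.0652, and 0.0495 without NC sham sample 4, over a range of 0.0228 to 0.241) and -0.23 on CDAHFD (limma adjusted p = 0.096). Cirbp, an RNA-binding protein induced by mild cold and repressed by heat, ran the other way. It rose on CDAHFD from 3.31 ± 0.88 to 12 ± 2.08 FPKM (log2 difference 1.60, SE 0.22, limma adjusted p = 9.82e-05) and on chow read 3.05 ± 0.854 and 5.23 ± 2.01 (0.57, limma adjusted p = 0.173, and 0.0479 with sample weights, over a range of 0.0479 to 0.401). Rbm3, the other cold-inducible gene listed, had 0.19 on CDAHFD (limma adjusted p = 0.225), and passed without CDAHFD RIC sample 1 (0.35, limma adjusted p = 0.011, over a range of 0.011 to 0.58). Body temperature and time of day are not given in the sources used here.

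Immediate early genes, which many stimuli induce within minutes, and genes of the circadian clock were listed as well. On CDAHFD 11 of 15 immediate early genes fell after conditioning, 0 rose, and the median was -0.70, beside 18.6% lower, 8.72% higher and a median of -0.08 for all genes. On chow limma called 0 of 15 in either direction (1 lower and 0 higher at an unadjusted p under 0.05, where all genes had 12.9% and 3.61%). Jun fell from 35.1 ± 4.5 to 13.8 ± 5.69 FPKM (log2 difference -1.38, limma adjusted p = 0.00142), Atf3 from 23.6 ± 2.87 to 10.4 ± 2.83 (-1.14, limma adjusted p = 1e-04) and Ier3 by 1.28 on the log2 scale (limma adjusted p = 1.95e-05). Mean levels in NC sham were 3.43 FPKM for Jun, 0.3 for Atf3 and 0.235 for Ier3. Atf3 and Ier3 thus had little room to fall on chow. In CDAHFD sham minus NC sham, 14 of 15 immediate early genes were called higher, with 63.9% of all genes. Of 15 clock genes Per2 fell on CDAHFD from 13.4 ± 3.44 to 4.59 ± 0.398 FPKM (-1.34, limma adjusted p = 3.19e-05), and Cry2 (0.39, limma adjusted p = 0.00308) and Nr1d2 (0.42, limma adjusted p = 0.0358) rose, the latter losing its call in 9 of 20 alternatives, among them the omission of CDAHFD sham sample 3 or 5 or CDAHFD RIC sample 1 or 2 (0.0574 to 0.137, over a range of 0.0141 to 0.137). On chow limma called 0 of 15, with 3 lower and 0 higher at an unadjusted p under 0.05 against the same shares. The 11 immediate early genes and Per2 were thus lower in the same CDAHFD samples as the heat shock genes. Over the 15 clock genes, however, 1 fell and 2 rose, beside 18.6% and 8.72% of all genes, and the median was -0.02. The part of the immediate early and clock genes in the heat shock values was not tested. Of the cell markers, 4 of 8 stellate cell genes fell on CDAHFD (summed FPKM 114 to 226 in sham and 91.9 to 155 in conditioned samples), 1 of 11 macrophage genes rose, and 2 of 10 hepatocyte genes rose and 2 fell. Their part was not tested either.

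**Figure D5:**
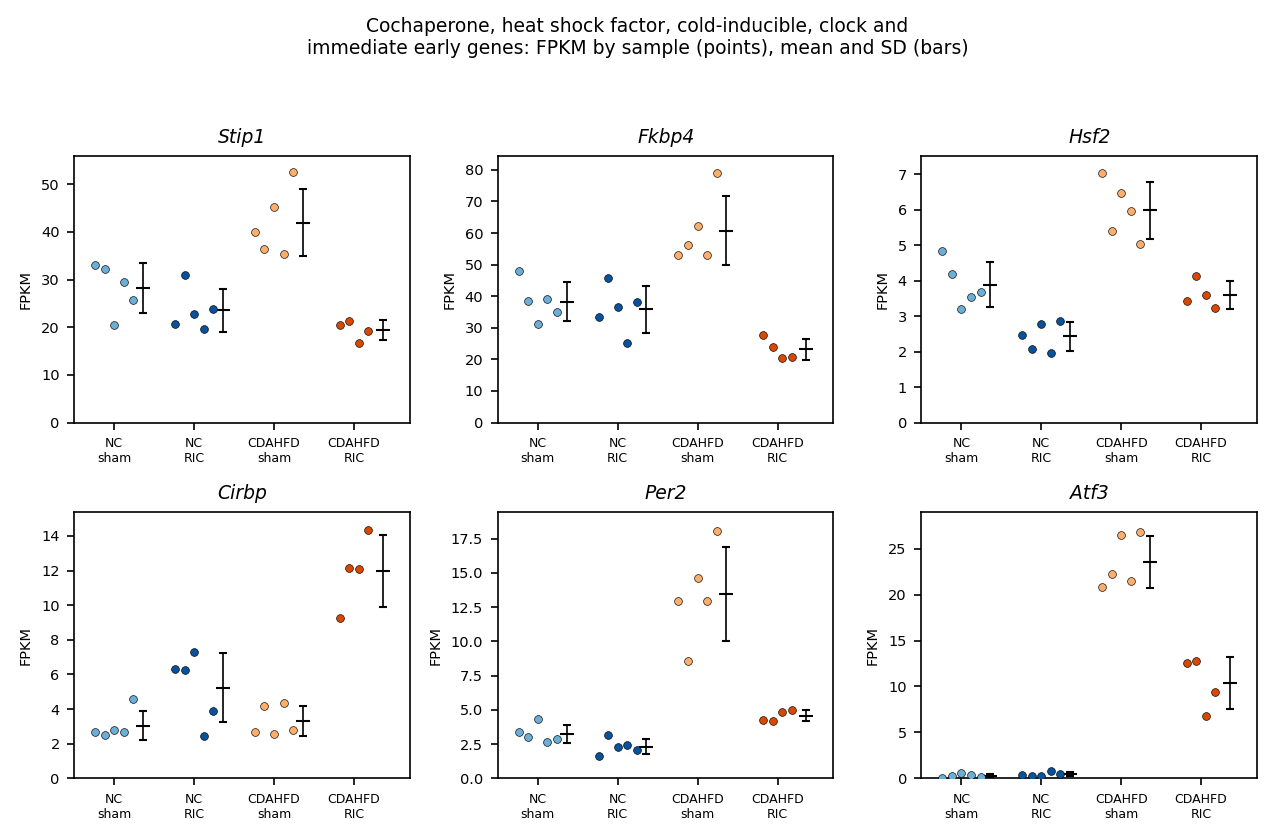
Panels plot FPKM (vertical axis) by group (horizontal axis) for the cochaperones Stip1 and Fkbp4, the factor Hsf2, the cold-inducible Cirbp, the clock gene Per2 and the immediate early gene Atf3; points are samples (5, 5, 5 and 4) and bars the group mean and SD. Hsf2 is lower in conditioned samples on both diets, Cirbp is highest in CDAHFD RIC (12 ± 2.08), and Atf3 is near 0 on chow.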

How the data were processed

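Liver RNA of 19 mouse samples was extracted with Trizol and made into libraries with a VAHTS kit, per the labels' protocols. The authors deposited 1 table of FPKM with a column per sample. HISAT2 2.2.1, HTSeq 0.13.5 and DESeq2 1.18.1, next to Trimmomatic 0.38, FastQC 0.11.9, R 3.4.1 and the mm10 build, are listed with no role, per the submitters' processing notes. Batches, how FPKM was computed and whether strand was kept are not given in the sources used here. Values of genes that others overlap (Hspa1a, Hspa8, Dnaja1 and Bag3) are therefore uncertain. FPKM are not counts, so no count test was used.

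The table's 3225 unnamed entries (0.123% to 0.204% of FPKM) were left out. Of 52110 named entries, those averaging 1 FPKM or more (10577) were tested with limma 3.58.1 in R 4.3.3 (data.table, version 1.17.8) on log2(FPKM + 1). The linear model had 1 mean per group, a trended variance, and 15 residual degrees of freedom. Tests were two-sided, with p-values adjusted over all genes by Benjamini-Hochberg and a threshold of 0.05. Groups came from the sample titles. The script was tested on simulated data. Comparisons that share a group share its samples. Plots and sequence searches used python 3.11.15, numpy 2.4.6, pandas 2.3.3 and matplotlib 3.10.9. Gene positions came from GENCODE (mm10) by symbol, which placed 91.8% of named entries and all 10 members, and promoters from RefSeq (GRCm38.p6).

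The members and the gene lists were chosen with earlier results of these data known. Genes named outside the family are the smallest p of each list in a comparison (up to 4), all genes of lists of up to 4, and the genes most like the family's mean by a set number. Of these a subset is given with values, taken after the values were seen. Values of 1 list gene are not reported here. Alternatives were another pseudocount (0.1), no filter, a filter at 5 FPKM, 3 rescalings (a common sum, median ratio, quantile), no variance trend, sample weights, only the groups compared, a replicate block, the omission of CDAHFD sham samples 2 and 5, and the omission of each sample. No 2 samples were duplicates: at most 0.00945% of tested genes had equal values.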

Additional observations from a re-analysis of the deposited data

Results flagged for a closer look

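In 9 of 88 groups checked, 1 sample lay farther from the others than the critical value of Dixon's test, and chance alone sets apart about 1 in 20 such groups. Of the heat shock genes, Hspa1b read 2.61 FPKM in CDAHFD RIC sample 4 (nearest 1.58) and Hspa8 331 in NC RIC sample 3 (nearest 230). Hsp90aa1 read 124 in NC RIC sample 2 (nearest 75.4) and 48.7 in CDAHFD sham sample 1 (nearest 92.8), and Dnaja1 read 41.5 in CDAHFD RIC sample 3 (nearest 31). Among other genes, Cacybp read 16.6 FPKM in NC sham sample 3 (nearest 22) and 27.9 in NC RIC sample 2 (nearest 19.9). Bag4 read 3.81 in CDAHFD sham sample 4 (nearest 2.91) and Cirbp 4.57 in NC sham sample 5 (nearest 2.8).

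The conditioning effect differed between the diets by limma's interaction term for 5 heat shock genes, a description because the term holds the contrast on which they were selected: Hspa1a (-1.68), Hspa1b (-1.88), Hsph1 (-1.78), Dnajb1 (-0.94) and Dnaja1 (-0.69), all as CDAHFD effect minus chow effect in log2. It differed as well for the cochaperones Bag4 (1.18), Ahsa2 (-0.91), Fkbp4 (-1.24) and Cacybp (-0.99). These are not members but were named for the smallest p of their list.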

How the results depend on the processing

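Of the values recomputed for the members, direction and call were kept in 168 of 199 for conditioning on chow, 199 of 199 for conditioning on CDAHFD, 182 of 209 for diet in sham mice, 168 of 189 for diet in conditioned mice, 182 of 189 for CDAHFD RIC minus NC sham and 285 of 289 for the interaction. For conditioning on CDAHFD the same samples had picked the members, so nothing is read from that count. On chow the 5 lower members became 3 with no filter or with quantile normalization, and 2 to 5 when 1 sample was left out. For CDAHFD RIC minus NC RIC, the 4 lower members became 8 under median-ratio scaling and 7 under quantile normalization, and the 1 higher became 2 under a common sum. For CDAHFD RIC minus NC sham, the 0 higher became 1 under a common sum or the replicate block, and 0 to 1 when 1 sample was left out. For diet in sham mice, the 0 lower became 3 under median-ratio scaling and 1 under quantile normalization. Of the 71 other chaperone genes on CDAHFD, the 26 lower became 15 under a common sum and the 3 higher became 6 under median-ratio scaling or quantile normalization. On chow sample weights gave 1 lower. A filter at 5 FPKM left 9 immediate early genes, of which 5 were lower on CDAHFD, and left out Hspa1a.

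Signs turned as follows, for differences near 0 except where all genes shifted. Under a common sum, the diet difference in sham mice was 0.017 for Hsph1 and 0.042 for Hspa8, and that in conditioned mice 0.061 for Dnajb1 and 0.033 for Hspa8. Under median-ratio scaling, Hsp90aa1 had 0.019 for conditioning on chow. For diet in sham mice Hsp90aa1 had -0.50, Hsp90ab1 -0.17 and Dnaja1 -0.54, for diet in conditioned mice Hsp90ab1 had -0.45, and for CDAHFD RIC minus NC sham Bag3 had -0.12. Under quantile normalization the same comparisons gave 0.057 for Hsp90aa1 in the first, 0.30 for Hspa8, -0.094 for Hsp90aa1 and -0.20 for Dnaja1 in the next, -0.049 for Hsp90ab1 in the third and -0.11 for Bag3 in the last. For diet in sham mice, sample weights gave -0.0072 for Dnaja1. Without CDAHFD sham samples 2 and 5 it was 0.016 for Hspa8, -0.020 for Hsp90aa1 and -0.099 for Dnaja1. With 1 sample left out, conditioning on chow ranged from -0.29 to 0.072 for Hsp90aa1 and from -0.25 to 0.26 for Hspb1. Diet in sham mice then ranged from -0.18 to 0.040 for Hsph1, -0.069 to 0.057 for Hspa8, -0.15 to 0.29 for Hsp90aa1 and -0.037 to 0.082 for Dnaja1. The cause of these turns was not tested.

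Samples share replicate numbers across groups, but these did not meet the bar for pairing, every pair's correlation above 0.1: deviations from group means correlated with a median of r = 0.0258 over 27 same-number pairs (-0.174 to 0.176, 6 above 0.1) and 0.00364 over 108 others (14 above 0.1), and 8 of 19 samples correlated best with their own number. With the replicate block, the adjusted p of Bag3 on chow became 0.0626, Hspa1b lost its call between the conditioned groups (-0.56) and Bag3 gained one in CDAHFD RIC minus NC sham (0.34). The interaction was not fitted with only the groups compared, since it needs all 4.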
